A study of Arabidopsis thaliana with 16 samples.

Results

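A group of 170 Arabidopsis probe sets had a high signal at the lowest dose of hydrogen peroxide (H2O2) tested, 1 mM, and a signal back near the unstressed level at the highest, 100 mM. They were chosen from the 22746 probe sets of an Affymetrix array that are not control spots, and each probe set stands for one gene or a few like genes. The unstressed level is the mean log2 signal of 5 of the 6 arrays made without H2O2. The left-out array, solvent replicate 3, is described on its own. A probe set belonged to the group if its mean over both arrays at 1 mM lay at least 1.5 above that level on the log2 scale and its mean over both arrays at 100 mM lay within 0.5 of it. Symbols beginning with HSP or UGT and plastid-encoded genes were to be left out, which removed 0 probe sets. The annotation ties 86 of the 170 to 1 gene, 5 to several and 79 to none. The group is called the low-dose genes, or low-dose probe sets, after this rule.

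The seedlings were whole 12-day-old Arabidopsis plants, wild type of the ecotype Col, moved to darkness for 1 h and kept for 30 min with 0, 1, 5, 25, 50 or 100 mM H2O2. They then received 1 µM epi-brassinolide (BL), a growth-promoting steroid hormone, or ethanol, its solvent, for 1 h in the dark while the H2O2 remained. Of the 16 arrays, 3 had BL and 3 solvent at 0 mM, and every higher dose had 1 array of each kind. All plants, the 0 mM plants included, had the dark period. The labels number the replicates without saying whether they are separate cultures, so each p-value measures the spread between these arrays, which may be technical. In whole seedlings, fewer cells of a type and less RNA per cell cannot be told apart.

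Hydrogen peroxide is both a by-product of stress and a signal in plants. At low concentrations it triggers rapid transcription through calcium, MAP kinases and zinc finger, WRKY and heat shock factors, and at high concentrations it oxidises proteins and damages cells. Heat shock proteins and their helpers refold oxidised proteins, glutathione S-transferases and alternative respiratory enzymes limit further oxidation, and receptor kinases link the oxidative burst to defence. The low-dose genes include heat shock helpers, a glutathione S-transferase, an alternative respiratory enzyme, a calcium sensor, a receptor kinase and other protein kinases.

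The deposited values are GCRMA log2 signals, so a difference of 1 is a 2-fold difference, and the lowest value, 2.12, is the floor of the scale. Array medians lay between 5.503 and 5.706. Solvent replicate 3 stood apart from the other unstressed arrays, with correlations of 0.907 and 0.819 with solvent replicates 1 and 2, which correlated with each other at 0.964. Of the 5 arrays of the unstressed level, solvent replicate 1 was highest (ties included) in 48.2% of low-dose probe sets, against 36.3% of all. It lay at least 1.5 above the mean of the others in 17 of the 170, against 314 of all 22746. The labelled whole seedling was checked with markers of its parts. The annotation tied none of 6 green-tissue marker genes to a separate probe set, and the plastid genes psbA and rbcL, added afterwards, read 11.8 to 12.9 and 9.68 to 11.3. The plastid gene psaA, also added afterwards, read 7.64 to 9.11 at 0 and 1 mM and 5.81 to 7.02 from 5 mM on. Of 6 root markers 2 could be measured, PYK10 at 12.0 to 14.1 and EXPA7, a root hair expansin, at 2.23 to 5.34 with its low values on all 10 H2O2 arrays and solvent replicate 3.

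The low-dose probe sets followed a graded course at 5, 25 and 50 mM, doses that the rule did not use. Their median difference to the unstressed level was 1.90 at 1 mM, 1.17 at 5 mM, 0.50 at 25 mM, 0.32 at 50 mM and 0.18 at 100 mM. The first and last values were set by the rule, which used the same unstressed level, so values between them were to be expected. At 5 mM 48 of the 170 still lay at least 1.5 above the unstressed level, at 25 mM 1 did and at 50 mM 1 did. Of all 22746 probe sets 683, 548 and 464 did at these doses. Within 0.5 of the unstressed level lay 19 of the 170 at 5 mM, 85 at 25 mM and 119 at 50 mM. Most of all 22746 probe sets lay there at each of these doses, namely 17176, 17969 and 18124. The name "raised only at low H2O2" therefore covers 1 mM for all 170 and also 5 mM for 48 of them. Only 5 of the 170 had a higher mean at 5 mM than at 1 mM. By contrast, the 268 probe sets that lay at least 1.5 above the unstressed level at both 1 and 100 mM had medians of 2.86, 3.06, 2.59, 2.35 and 2.18 at the 5 doses. The rule's limits cut a continuous range. SGT1A, AT5G51130 and AT4G17215 lay just inside with rises of 1.503, 1.505 and 1.515 at 1 mM, and AT2G23680, AT4G23050 and AT5G47830 lay just outside with 1.499, 1.496 and 1.477. Altogether 739 probe sets lay at least 1.5 above the unstressed level at 1 mM.

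**Figure D1:**
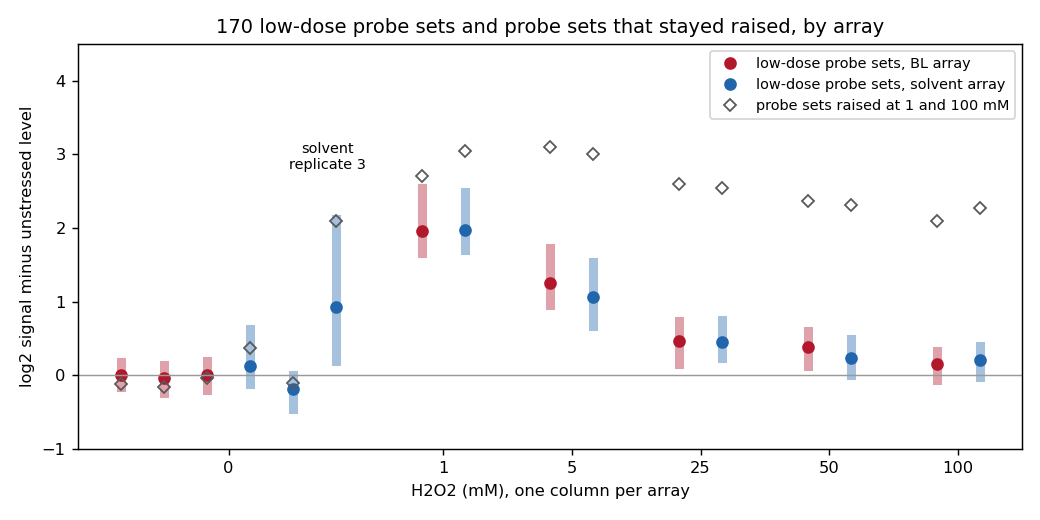
Log2 signal minus the unstressed level (y) on each of the 16 arrays, ordered by H2O2 dose in mM (x). Filled points are the median of the 170 low-dose probe sets on BL arrays (red) and solvent arrays (blue), bars span the middle 50% of them, and open diamonds are the median of the 268 probe sets raised at both 1 and 100 mM. The medians of the low-dose probe sets are highest at 1 mM, lower at 5 mM and near 0 at 100 mM, while the diamonds stay above 2 at every dose above 0 mM.

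The size of the step from 5 mM to 25 and 50 mM rests on 6 arrays that played no part in choosing the genes. The rule still asked for a fall from 1 mM to the highest dose, so a fall at a step between was to be expected. The shares of low-dose probe sets that follow are therefore a description and not independent of the rule. The mean at 25 and 50 mM was below that at 5 mM in 168 of the 170 low-dose probe sets, or 98.8%, against 35.6% of all 22746. In 143 of the 170 all 4 arrays at 25 and 50 mM lay below both arrays at 5 mM, which was so for 10.6% of all probe sets. The change was tested with limma on the 10 H2O2 arrays, in probe sets that reached 5 on at least 2 arrays. The model had a term for each dose and one for BL. The arrays at 1 mM and at the highest dose, which served to choose the genes, thus entered the spread of this test. Of the 13140 probe sets tested, 710 were called lower (5.40%) and 618 higher (4.70%) at an adjusted p under 0.05. With each array centred on its median, the numbers were 939 lower and 438 higher. Of the 170 low-dose probe sets 145 entered the test and 114 of these were called lower, or 78.6%. The filter let 10 of the 145 in through the 1 mM arrays alone, and others could enter through the 5 mM arrays. Of the 114 that reached 5 on all 4 arrays at 25 and 50 mM, 95 were called lower, without a matching count over all probe sets. The called changes ranged from -2.83 to -0.44, with a median of -0.90. Over all 145 tested the median change was -0.83, against 0.03 over all probe sets tested. The 1 called higher, by 0.86 with an adjusted p of 0.0258, has no gene in the annotation. It read 4.63 with BL and 4.57 with solvent at 5 mM, below its unstressed level of 5.41 ± 0.42 (SD, n = 5), and its call was lost without either 5 mM array or the BL array at 25 or 50 mM. Of the 268 probe sets that stayed raised, 267 were tested and 121 were called lower (45.3%), with a median of -0.62. The difference between this share and that of the low-dose probe sets was not tested.

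**Figure D2:**
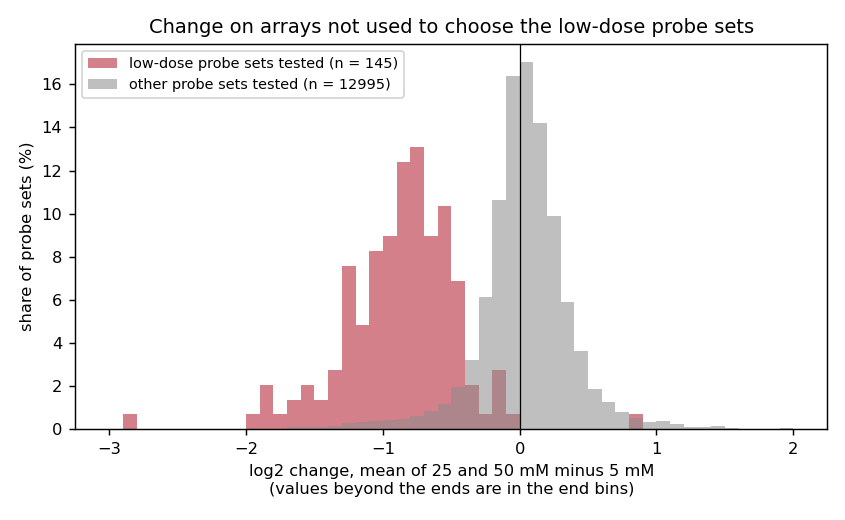
Share of probe sets in percent (y) by log2 change of the mean at 25 and 50 mM minus that at 5 mM (x), for the 145 low-dose probe sets tested (red) and the other probe sets tested (grey). Most low-dose probe sets lie left of 0, around a median of -0.83, and 1 lies to the right near 0.86.

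Single arrays moved the number of calls. It was 27 without the BL array at 5 mM, where 1.23% of all probe sets tested were called lower, 60 without the solvent array at 5 mM (2.35% of all), and 84 to 121 without any other array (3.29% to 6.07% of all). A fit to only the 6 arrays at 5, 25 and 50 mM called 107 lower (5.27% of all). A fit to all 16 arrays, whose spread includes the unstressed arrays, called 7 lower (0.213% of all). The test without a filter on low values called 32 (0.972% of all), and 25 mM alone against 5 mM called 55 (2.21% of all). The median of the low-dose probe sets tested lay between -0.95 and -0.73 in every setting. The 3′ minus 5′ signal of the array's actin, GAPDH and ubiquitin control probe sets, a measure of RNA integrity, was higher at the higher doses on the same arrays. Its mean was 2.63 to 2.70 at 1 mM, 2.72 to 2.75 at 5 mM, 2.90 to 3.06 at 25 and 50 mM and 3.20 to 3.27 at 100 mM, against 2.65 to 2.81 at 0 mM. Its part in the change was not tested.

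AT5G51440, AT3G09440, HSA32 and ROF2, all chaperones or their helpers, were among the 25 genes with the largest rises at 1 mM, and the co-chaperone SGT1A had the smallest rise of all. They are described together after their values were seen. AT5G51440 is a small heat shock protein of mitochondria. The rule's exclusion reads symbols, so that AT5G51440, AT3G09440 and AT2G19310, which have no HSP symbol in the annotation, were kept. AT1G73740, of the UDP-glycosyltransferase superfamily, has no UGT symbol there and was kept too. The 0 mM arrays of AT5G51440 read 8.71, 9.17 and 9.24 with BL and 7.36, 6.97 and 9.34 with solvent. With BL it read 11.97, 11.07, 9.63, 9.19 and 8.19 at 1, 5, 25, 50 and 100 mM, and with solvent 12.26, 10.67, 9.17, 8.78 and 8.61. Both 1 mM arrays stood above all others, and from 50 mM on the values lay within the range of the unstressed ones. For this and every low-dose gene below, the rule asked for a 1 mM mean above the unstressed level and a 100 mM mean near it. At 1 mM the mean of AT5G51440 was 14.1-fold above the unstressed level. It was 3.20-fold lower at 25 and 50 mM than at 5 mM, a log2 change of -1.68 ± 0.20 (SE), with a limma adjusted p of 0.0034.

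AT3G09440 encodes a cytosolic Hsp70 chaperone. The 0 mM arrays read 9.70, 9.75 and 9.49 with BL and 9.20, 8.76 and 9.59 with solvent. Across 1, 5, 25, 50 and 100 mM the values were 12.21, 11.50, 10.22, 10.06 and 9.02 with BL and 12.17, 11.11, 9.82, 9.57 and 9.56 with solvent. The group at 1 mM did not overlap any other dose, a gap that the rule itself favoured for 0 and 100 mM. The 5 mM arrays stood clear of the 25 and 50 mM arrays. The test gave a log2 change of -1.39 ± 0.21 (SE) at 25 and 50 mM against 5 mM, with a limma adjusted p of 0.0066.

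ROF2 (AT5G48570), an FKBP-type peptidyl-prolyl isomerase that works with HSP90 in heat acclimation, had 0 mM values of 10.27, 11.21 and 10.47 with BL and 9.42, 9.06 and 11.37 with solvent. Over the 5 doses it read 12.85, 12.43, 11.27, 11.07 and 10.26 with BL and 12.72, 11.72, 10.85, 10.61 and 10.64 with solvent. Here the unstressed arrays spread over more than 2 log2 units, and solvent replicate 3 reached the level of 25 mM. The change at 25 and 50 mM against 5 mM was -1.12 ± 0.20 (SE, adjusted p = 0.0136, limma).

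HSA32, needed for the long-term retention of thermotolerance, read 7.80, 8.09 and 8.15 with BL and 6.77, 7.001 and 7.82 with solvent at 0 mM. Its values over the doses were 10.26, 9.23, 8.41, 8.18 and 7.69 with BL and 10.33, 8.75, 8.01, 7.89 and 8.08 with solvent. At 25 and 50 mM it averaged 8.12, against 8.99 at 5 mM, a change of -0.87 ± 0.18 (SE, adjusted p = 0.0231, limma). SGT1A, a co-chaperone of HSP90 in immune receptor function, had a difference of -0.50 with an adjusted p of 0.107. AT2G19310, an HSP20-like protein named after its values were seen, changed by -0.87 with an adjusted p of 0.0179. The calls of AT5G51440, AT3G09440 and ROF2 were lost without the BL array at 5 mM (adjusted p of 0.0538, 0.0818 and 0.125), that of AT2G19310 without either 5 mM array, and that of HSA32 without any 1 of 4 arrays, the 5 mM ones and the solvent arrays at 25 and 50 mM.

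**Figure D3:**
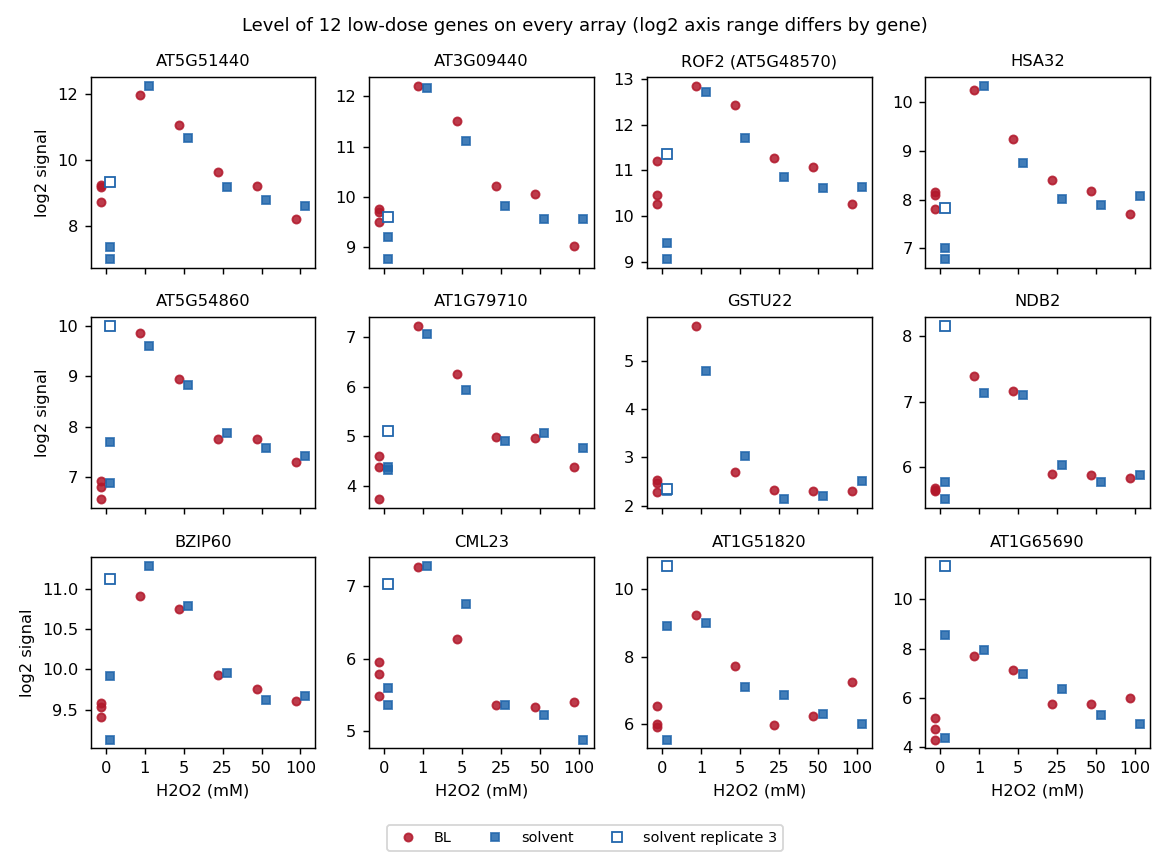
Log2 signal (y, with its own range in each panel) of 12 low-dose genes on every array by H2O2 dose in mM (x), with BL arrays as red circles, solvent arrays as blue squares and solvent replicate 3 at 0 mM as an open square. AT5G51440 drops stepwise from 12.26 at 1 mM, NDB2 holds its 1 mM level at 5 mM, GSTU22 is near the floor at every dose but 1 mM, and AT1G65690 has its highest value, 11.36, in solvent replicate 3.

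A second set encodes transporters of the folate-biopterin family, membrane carriers for pterins and folates. The family was looked up after its members had been seen in the group. Of its 9 loci, 5 had a probe set of their own, and 3 of those are low-dose genes, as is 1 probe set shared by AT5G25050 and AT5G25040. AT5G54860 read 6.81, 6.92 and 6.56 with BL and 7.69, 6.89 and 9.99 with solvent at 0 mM. At 1, 5, 25, 50 and 100 mM it had 9.86, 8.95, 7.76, 7.75 and 7.31 with BL and 9.60, 8.83, 7.88, 7.59 and 7.43 with solvent. BL and solvent arrays followed the same course, and solvent replicate 3 was above the 1 mM arrays. The change at 25 and 50 mM against 5 mM was -1.14 ± 0.11 (SE, adjusted p = 0.0018, limma).

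AT1G79710 read 3.74, 4.60 and 4.39 with BL and 4.39, 4.33 and 5.12 with solvent at 0 mM. Over the doses its values were 7.22, 6.25, 4.99, 4.98 and 4.39 with BL and 7.05, 5.93, 4.91, 5.06 and 4.78 with solvent. All H2O2 arrays up to 5 mM lay above every other array. It changed by -1.11 ± 0.14 (SE, adjusted p = 0.0044, limma), AT5G10820 by -0.73 (adjusted p = 0.0207) and the shared probe set by -0.87 (adjusted p = 0.0063). The call of AT5G54860 held without any one H2O2 array. Those of AT1G79710 and AT5G10820 were lost without the BL array at 5 mM (the second also without the BL array at 25 or 50 mM) and that of the shared probe set without the solvent array at 5 mM. The remaining 2 loci with a probe set differed: AT1G64890 stayed between 2.59 and 3.51 and AT2G32040 between 7.60 and 8.37 on all arrays. AT5G10820 lies next to another low-dose gene, AT5G10830, on chromosome 5 in the TAIR10.1 gene table, and AT2G41160 and AT2G41170 are a second such pair, on chromosome 2.

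Detoxification and redox genes differed in how narrow their response was. GSTU22, a glutathione S-transferase of the tau class, read 2.28, 2.53 and 2.47 with BL and 2.33, 2.31 and 2.34 with solvent at 0 mM, close to the floor. It had 5.73 with BL and 4.80 with solvent at 1 mM and 2.70, 2.33, 2.30 and 2.31 with BL and 3.03, 2.13, 2.20 and 2.51 with solvent at the higher doses. Reaching 5 on 1 array, it did not enter the test. NDB2, a mitochondrial NAD(P)H dehydrogenase that bypasses the proton-pumping complex of the respiratory chain, kept its 1 mM level at 5 mM. Its values were 7.39, 7.17, 5.90, 5.88 and 5.84 with BL and 7.13, 7.11, 6.04, 5.78 and 5.88 with solvent over the doses, and 5.69, 5.63 and 5.66 with BL and 5.78, 5.51 and 8.15 with solvent at 0 mM. Apart from solvent replicate 3, the arrays fell into a high group at 1 and 5 mM and a low group. The change at 25 and 50 mM against 5 mM was -1.24 ± 0.11 (SE, adjusted p = 0.0015, limma), and it held without any one H2O2 array.

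APS3, an ATP sulfurylase that activates sulfate for cysteine and glutathione synthesis, peaked at 5 mM. With BL it read 8.99, 9.39, 8.71, 8.16 and 7.53 over the doses, and with solvent 9.02, 9.72, 8.80, 8.13 and 8.10, against an unstressed level of 7.36 ± 0.26 (SD, n = 5). The change at 25 and 50 mM against 5 mM was -1.11 (adjusted p = 0.0035, limma), held without any one array. AT3G28850, of the glutaredoxin family, fell by 0.76 on the log2 scale (adjusted p = 0.0025, limma), also in each of these fits. AT4G20830, an FAD-linked oxidase of the berberine-bridge type, fell by 0.52 (adjusted p = 0.0412), and leaving out any one array at 1 or 5 mM, the BL array at 25 mM or the solvent array at 50 mM ended this call. Its unstressed arrays read 10.17, 9.42 and 9.74 with BL and 12.00, 9.41 and 12.70 with solvent, and its 1 mM arrays 12.00 with BL and 11.98 with solvent, so a pair of solvent arrays without H2O2 reached the level of 1 mM. NDB2, APS3, AT3G28850 and AT4G20830 were named after their values were seen.

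Regulators of the stress response formed another group. BZIP60, a membrane-tethered transcription factor of the unfolded protein response, read 9.53, 9.40 and 9.58 with BL and 9.92, 9.13 and 11.12 with solvent at 0 mM. Its values over the doses were 10.91, 10.75, 9.93, 9.75 and 9.60 with BL and 11.29, 10.79, 9.95, 9.62 and 9.67 with solvent. All arrays at 1 and 5 mM stood above all those at 25 and 50 mM. Its change to the higher doses was -0.96 ± 0.12 (SE, adjusted p = 0.0034, limma), a call held without any one array. CML23, a calmodulin-like calcium sensor, read 7.27, 6.27, 5.36, 5.34 and 5.40 with BL and 7.28, 6.75, 5.36, 5.22 and 4.89 with solvent over the doses. At 0 mM it had 5.78, 5.49 and 5.96 with BL and 5.60, 5.36 and 7.03 with solvent, so that from 25 mM on it was at or below most unstressed arrays. Its change was -1.19 (adjusted p = 0.0066), lost without the solvent array at 5 mM (0.0561). AT2G28710, a C2H2 zinc finger protein, was near the floor except at 1 mM, with 5.34 with BL and 5.10 with solvent, and at 5 mM, with 4.24 and 4.25. It fell by 1.89 on the log2 scale (adjusted p = 0.0015, limma), held without any one array.

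Kinases and a membrane protein were also among the low-dose genes. AT1G51820, a leucine-rich repeat receptor kinase, read 6.54, 5.90 and 6.01 with BL and 8.92, 5.54 and 10.69 with solvent at 0 mM. Over the doses its values were 9.23, 7.74, 5.96, 6.25 and 7.24 with BL and 8.98, 7.11, 6.86, 6.29 and 6.01 with solvent. The solvent arrays without H2O2 thus spanned the whole range of the H2O2 arrays and beyond, and the change at 25 and 50 mM against 5 mM, -1.09 ± 0.36 (SE), had an adjusted p of 0.0984 in limma. AT1G65690, an NHL-type membrane protein, read 5.17, 4.31 and 4.74 with BL and 8.54, 4.36 and 11.36 with solvent at 0 mM. With BL it read 7.71, 7.15, 5.75, 5.75 and 5.998 over the doses and with solvent 7.94, 6.97, 6.37, 5.29 and 4.94. Its change of -1.27 (adjusted p = 0.0326, limma) was lost without any one of the arrays at 1 to 50 mM other than the solvent array at 25 mM. The protein kinases AT1G16670, AT3G09830 and AT1G03740, named after their values were seen, changed by -0.57, -0.78 and -0.73 (adjusted p of 0.0083, 0.0251 and 0.0062). Those calls were lost without the BL array at 5 mM (for AT1G16670 also without the solvent array at 5 mM, and for AT3G09830 also without that array or either array at 50 mM).

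AT4G22980, AT4G17250 and AT1G70420 have no symbol in the tables. AT4G22980 had the largest rise at 1 mM of the 170, 4.55 on the log2 scale, with 7.05 and 6.56 in the BL and solvent arrays at 1 mM, against an unstressed level of 2.26 near the floor. At 5 mM its arrays disagreed, with 4.46 with BL and 2.83 with solvent, and the change of -1.30 from there had an adjusted p of 0.0555. AT4G17250 lay 4.03 above its unstressed level at 1 mM and was still at 7.86 with BL and 7.57 with solvent at 5 mM. At 25 and 50 mM it averaged 5.76, against 7.72 at 5 mM, a change of -1.96 ± 0.41 (SE, adjusted p = 0.0237, limma). This call was lost without either 5 mM array, the BL array at 25 mM or the solvent array at 50 mM. AT1G70420 read 9.46 with BL and 10.04 with solvent at 1 mM, against an unstressed level of 6.11 ± 0.55 (SD, n = 5), and changed by -1.75 (adjusted p = 0.0024).

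Among the other genes with the largest rises, 9 were also called lower at 25 and 50 mM than at 5 mM. Their changes were -1.20 for AT4G23493, -1.52 for AT3G07150, -1.36 for AT5G35320, -1.03 for AT5G67350, -0.85 for AT5G64230, -0.93 for AT1G73740, -1.18 for AT1G12030, -0.96 for AT5G10830 and -1.05 for AT1G80450. The calls of AT1G70420, AT5G35320, AT1G73740 and AT5G10830 held without any one array, and those of the other 6 did not, with adjusted p-values up to 0.185. AT4G23493, AT3G07150, AT1G12030, AT5G64230 and AT1G80450 lost theirs without the BL array at 5 mM, and AT5G67350, AT1G12030 and AT1G80450 without the solvent array at 5 mM. Leaving out the BL array at 50 mM also ended the calls of AT3G07150, AT5G64230 and AT1G80450, and either array at 25 mM that of AT5G64230. Differences of -0.83 for AT1G44414 (adjusted p = 0.0724), -0.71 for the AAA-type ATPase AT5G57480 (0.216) and -0.47 for the β-galactosidase BGAL16 (0.192) did not pass. AT5G53680, an RNA-binding protein that stood at 2.12 to 2.32 without H2O2 and at 5.10 with BL and 4.20 with solvent at 1 mM, did not pass the filter. AT4G17215 did not pass it either, and AT5G51130 changed by -0.90 (adjusted p = 0.0046, lost without the BL array at 5 mM). Of the 170, 27 had an unstressed level under 3, where the floor limits any fold.

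The other genes of these pathways were taken from 12 lists with 165 genes, chosen with earlier results of these data known. Only 22 had a separate probe set that the annotation ties to them alone, 20 were tested and 3 are low-dose genes, namely ROF2, CML23 and BZIP60. Of the 20, 15 were called lower at 25 and 50 mM than at 5 mM and 0 higher, against the 5.40% and 4.70% of all probe sets tested. The 15 include ROF2, CML23 and BZIP60, and the lists were not chosen blind to these data, so the counts are a description. All 3 tested heat shock helpers were called, ROF2, FES1A (-1.31) and HOP3 (-1.19), but FES1A and HOP3 still lay 1.51 and 1.04 above the unstressed level at 100 mM. The 4 tested immune signalling genes were called too. PUB23 and PUB24, ubiquitin ligases that dampen immunity, changed by -1.28 and -1.24, PUB22 by -1.04 and the kinase BIK1 by -0.55. PUB22 and BIK1 lost the call without any one of the arrays at 1 to 50 mM other than the solvent array at 25 mM.

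Among calcium genes 3 of 5 were called, CML37 (-1.70), CML42 (-1.24) and CML23, whereas CML38 (-0.11) and CML41 (-0.29) had adjusted p-values of 0.584 and 0.664. CML37 was 3.63 above its unstressed level at 100 mM. Of the WRKY factors, WRKY6 (-1.23, adjusted p = 0.0118) and WRKY22 (-0.67, adjusted p = 0.0490) were called and WRKY53 (-0.77) was not, at 0.319. WRKY6 lay 2.18 above the unstressed level at 1 mM but 0.82 below it at 100 mM, outside the window of 0.5. The transcription factors ERF019 (-1.97) and ZAT10 (-1.22) were called, at 2.30 and 3.08 above the unstressed level at 100 mM. ERDJ3B, a chaperone of the endoplasmic reticulum, and UPOX, a mitochondrial stress gene, had changes of 0.22 and 0.44 with adjusted p-values of 0.417 and 0.0783. WRKY6 and FES1A lost the call without either 5 mM array, HOP3 without these or the solvent array at 50 mM, ZAT10 without the BL and CML42 without the solvent array at 5 mM, and WRKY22 without any one array at 1 to 50 mM. The lists of jasmonate, ethylene, abscisic acid and indole glucosinolate genes had no gene with a probe set of its own.

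No low-dose gene passed the test of BL against solvent on the H2O2 arrays. With the 5 pairs of BL and solvent arrays, limma called 0 of the 13140 probe sets higher and 0 lower, each 0.00% of those tested, and the smallest adjusted p of a low-dose probe set was 0.807. At an unadjusted p under 0.05, 12 of the 145 were higher and 1 lower with BL, or 8.97%, against 5.99% of all probe sets tested. The differences ranged from -0.49 to 0.46 with a median of 0.07. Dose by dose, the median difference of BL minus solvent over the 170 was -0.01 at 1 mM, 0.21 at 5 mM, -0.01 at 25 mM, 0.10 at 50 mM and -0.06 at 100 mM. BL was above solvent in 79, 130, 81, 106 and 62 of the 170 at these doses, each from a single pair of arrays with no test.

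Of the 6 arrays at 0 mM, 5 formed the unstressed level used to choose the genes and solvent replicate 3 did not, so BL against solvent without H2O2 is given as a description. The differences ranged from -3.35 to 2.12, with a median of -0.37, and the median was -0.08 without solvent replicate 3. None of the 145 tested was called by limma, against 3 of 13140 called higher (0.0228%) and 0 lower (0.00%), and the smallest adjusted p was 0.146. In data simulated with the spread of the 0 mM arrays, solvent replicate 3 included, this test recovered only 17 of 100 log2 changes of 1. At such a spread it would miss most changes of that size. At an unadjusted p under 0.05, 12 of the 145 were higher and 12 lower with BL, or 16.6%, against 9.23% of all probe sets tested. All 3 BL arrays lay above solvent replicates 1 and 2 in 39 of the 170 and below both in 25, against 12.1% and 7.49% of all 22746 probe sets. Beside all 3 solvent arrays the numbers were 13 and 23 of the 170, against 9.60% and 5.15% of all.

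AT1G44414 had the largest positive difference at 0 mM, with 5.93, 6.38 and 6.32 with BL and 4.13, 3.80 and 4.33 with solvent. The groups did not overlap, and the difference was 2.12 (adjusted p = 0.146, limma). AT4G23493 read 7.001, 7.002 and 7.13 with BL and 4.79, 4.31 and 6.30 with solvent, again without overlap, and AT3G07150 read 4.48, 4.88 and 4.66 with BL and 3.21, 3.21 and 4.28 with solvent. Without solvent replicate 3 the fit held exactly the 5 arrays of the unstressed level, and without solvent replicate 2 most of them. The calls of both fits are therefore a description too. Without solvent replicate 3, 45 of 13140 probe sets were called higher with BL (0.342%) and 7 lower (0.0533%). Of the low-dose probe sets 5 were called higher: AT4G23493 by 2.50 (adjusted p = 0.0112), AT1G44414 by 2.24 (0.0178), AT5G51440 by 1.88 (0.0401), AT3G07150 by 1.46 (0.0315) and an unnamed probe set by 1.44 (0.0296). Without solvent replicate 2, 26 of 13140 were called higher (0.198%) and 67 lower (0.510%). Of the low-dose probe sets AT1G44414 alone was called higher, by 1.98 (0.0412), and 5 were called lower. These were AT4G20830 by -2.57 (0.0486), AT3G09830 by -2.13 (0.0486), AT3G46110 by -1.83 (0.0435), and a pair of unnamed probe sets by -2.86 (0.0435) and -2.35 (0.0332).

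The BL response under H2O2 minus that at 0 mM was tested in one model over all 16 arrays, which include those at 0, 1 and 100 mM that chose the genes, so its values too are a description. No low-dose probe set passed, against 7 probe sets called lower (0.0533%) and 1 higher (0.00761%) of 13140, and the smallest adjusted p was 0.05003, for AT1G44414 with a difference of -2.01. The median difference was 0.40, and 0.10 without solvent replicate 3. At an unadjusted p under 0.05, 23 were higher and 9 lower, or 22.1%, against 16.2% of all probe sets tested. In simulated data this test recovered only 20 of 100 log2 changes of 1. There every array had the spread of the 0 mM arrays, solvent replicate 3 included. In the data, the array medians of the low-dose probe sets had an SD of 0.0774 within dose pairs and 0.4064 within groups at 0 mM. The simulated recovery need therefore not hold for this test. The count of calls turned on the solvent arrays without H2O2. Leaving out solvent replicate 2 gave 42 low-dose probe sets with a higher and 2 with a lower difference, against 952 (7.25%) and 834 (6.35%) of all 13140. Leaving out solvent replicate 3 gave 0 higher and 6 lower, against 27 (0.205%) and 83 (0.632%) of all. The 6 include AT4G23493 (-2.26, adjusted p = 0.0033), AT1G44414 (-2.13, 0.0162), AT5G51440 (-1.76, 0.0233) and AT5G35320 (-1.41, 0.0233). Without either 5 mM array AT1G44414 was called lower (-2.18, 0.0455), where 6 probe sets in all were called lower (0.0457%) and 1 higher (0.00761%).

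Solvent replicate 3 had no part in choosing the genes, but its difference to the unstressed level shares the same 5 arrays with the rise at 1 mM, so the values are given side by side without a test. It lay at least 1.5 above the unstressed level in 65 of the 170, or 38.2%, against 5.63% of all probe sets, and at least 1.5 below it in 1, or 0.588%, against 4.77%. In 50 of the 170 it was at or above the 1 mM mean. AT1G65690 was 5.94 above the unstressed level there, against 2.41 at 1 mM, AT1G51820 4.10 against 2.52, the asparaginase ASPGB1 3.97 against 1.87, AT1G70420 3.77 against 3.64, AT5G54860 3.02 against 2.75 and BZIP60 1.61 against 1.59. Among the heat shock proteins and their helpers, AT3G09440 stood at 0.21 against 2.81 at 1 mM, HSA32 at 0.26 against 2.73, AT2G19310 at 0.84 against 2.30, AT5G51440 at 1.04 against 3.82, ROF2 at 1.28 against 2.70 and SGT1A at 1.70 against 1.503. AT1G44414 lay 0.99 below the unstressed level in this array. The median was 0.92 for the low-dose probe sets and 2.099 for the 268 that stayed raised. PYK10 was 1.55 and EXPA7 2.16 below the unstressed level in this array. Their part in these values was not tested.

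**Figure D4:**
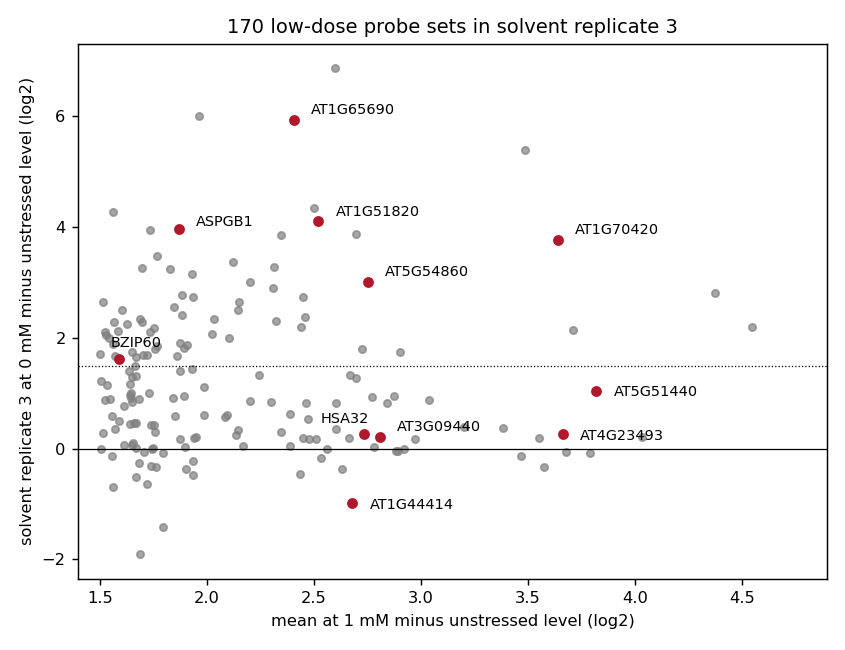
Log2 signal of solvent replicate 3 at 0 mM minus the unstressed level (y) against the mean at 1 mM minus the unstressed level (x) for the 170 low-dose probe sets, with 11 named genes in red, chosen after their values were seen. Both axes share the 5 arrays of the unstressed level. Above the dotted line at 1.5 lie 65 probe sets, AT1G65690 among them at 5.94, while AT3G09440 and HSA32 lie near 0.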

How the data were processed

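RNA of 16 whole-seedling samples was measured on Affymetrix arrays. The deposited table gives log2 signals for every probe set, computed by the authors with GCRMA according to the submitters' processing notes (version and settings not given). No further scaling was applied, and every column was used. The number of arrays limits the precision, since arrays have no read depth. The table holds 22810 entries, 64 of them controls. Probe sets reaching 5 on at least 2 of 16 arrays (13140) were tested with limma 3.58.1 (lmFit, eBayes) in R 4.3.3 with Benjamini-Hochberg adjustment over all of them, and called at an adjusted p under 0.05. All fits were first tested on simulated data, with log2 changes of 1 and 2 in 100 probe sets each. The contrast of 25 and 50 mM against 5 mM recovered 80 and 98 of these, and BL against solvent under H2O2 87 and 100. BL against solvent at 0 mM recovered 17 and 69, and the difference of the BL responses 20 and 61. Both of these were simulated with the spread of the 0 mM arrays on every array.

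The H2O2 arrays gave the contrast of 25 and 50 mM against 5 mM and BL against solvent, the 0 mM arrays BL against solvent, and all arrays the difference of both BL responses. Genes come from the platform annotation (13513 probe sets with 1 gene, 503 with several, 8730 with none), matched to RefSeq genes of TAIR10.1 for 13436. What each product does is general background. The naming rule took low-dose genes with 1 gene: the 25 largest rises at 1 mM, the 3 smallest, those on the lists, and up to 8 called per comparison and direction; others are said to be named after their values were seen. The genes, lists and tests were chosen with earlier results of these data known. Replicate numbers at 0 mM do not pair the arrays: BL and solvent deviations of the same number correlated at 0.18, 0.11 and -0.07. Alternatives were other filters, centring, a trend in eBayes, other arrays in the fit, other thresholds of the rule and leaving out each array.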

Additional observations from a re-analysis of the deposited data

How the results depend on the processing

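The choice of low-dose probe sets moved with its thresholds. There were 378 with a rise of at least 1 and 74 with a rise of at least 2 at 1 mM, and 97 with a window of 0.25 at 100 mM, against 170. Other unstressed arrays left the number at 163 to 179 but shared only 103 to 123 probe sets with the 170, and leaving out each of the 9 arrays in turn, an alternative chosen after seeing the data, gave 164 to 179. At 25 and 50 mM against 5 mM, 114 were called lower and 1 higher. The numbers were 32 and 0 without a filter, 7 and 0 in a fit to all 16 arrays, and 55 and 0 at 25 mM alone, and 0 were called higher with a filter at 7. Leaving out 1 array gave 27 to 121 lower and 0 to 1 higher. Among named genes that were not called, BGAL16 ranged from -0.95 to 0.0042, CML41 from -0.62 to 0.041 and ERDJ3B from -0.019 to 0.45, with the sign turned without the BL array at 5 mM, the BL array at 25 mM and the solvent array at 5 mM. For BL against solvent under H2O2, no alternative called a low-dose probe set. At 0 mM, leaving out 1 array gave 0 to 5 called higher and 0 to 5 lower, and the fit with the replicate number as a block gave 0 and 0. For the difference of the BL responses, it gave 0 to 42 higher and 0 to 6 lower. The cause was not tested. The floor of the scale limits the 27 low-dose probe sets with an unstressed level under 3.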
